A study of Mus musculus with 27 samples.

Results

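The receptors for prolactin and growth hormone, the kinase and transcription factors that carry their signal, the inhibitors that end it, and transcription factors that they control in liver were followed across the lobular zones of the mouse liver in pregnancy. The 10 genes are Prlr, Ghr, Jak2, Stat5a, Stat5b, Socs2, Socs3, Cish, Bcl6 and Cux2, chosen by symbol from the 21823 genes of the expression table. RNA was sequenced from areas of zone 1, zone 2 and zone 3 cut out of liver sections with a laser, from wild-type (WT) C57BL/6 female mice (C57BL/6N in the study's methods) that were not pregnant (NP), at 8 days post coitum (dpc8) or at 16 days (dpc16). No genetic change or treatment other than pregnancy is stated for any group. Each of the 9 groups of stage and zone had 3 libraries, 27 in all. By convention zone 1 lies around the portal vein, zone 3 around the central vein and zone 2 between them. The labels do not say whether libraries with the same replicate number came from the same mouse, nor that replicates were separate animals, so the p-values measure only the spread between these libraries and may be too small where zones share an animal.

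Prolactin, growth hormone and the placental lactogens are related hormones. They bind the receptors encoded by Prlr and Ghr, which have no enzyme activity of their own and work through the kinase Jak2, and Jak2 phosphorylates the transcription factors Stat5a and Stat5b. Active STAT5 enters the nucleus and switches on genes that include the feedback inhibitors Cish, Socs2 and Socs3. In rodent liver, the timing of growth hormone pulses differs between the sexes and sets sex-biased expression through STAT5, with Bcl6, a repressor that is higher in males, and Cux2, which is higher in females.

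Expression was given as FPKM, fragments per kilobase of transcript and per total of mapped fragments, and all 10 genes passed the filter of at least 1 FPKM in at least 3 libraries. The FPKM sum per library was 499866 to 988500, and steps in the low values gave an estimated depth of 7529000 to 32973000 reads, with a median of 16260000. The summed FPKM of 8 pericentral markers separated the zone labels, with 243 to 465 in the 9 zone 1 libraries, 964 to 5649 in zone 2 and 6824 to 18291 in zone 3. That of 8 periportal markers overlapped between neighbouring zones, with 2686 to 4984, 449 to 3607 and 135 to 1658. Although all mice are labelled female, 4 Y-linked genes summed to 7.92 to 23.2 FPKM in 6 libraries and to at most 2.97 in the other 21. They were replicate 1 of zone 1 and replicate 2 of zone 3 in NP mice, replicate 1 of zone 1 and replicate 2 of zone 2 at dpc8, and replicate 3 of both zone 2 and zone 3 at dpc16. The same 6 libraries had the highest sums over 8 connective tissue and smooth muscle markers, 865 to 4593 FPKM against 13.6 to 538 in the other 21. The comparisons of the receptors between dpc16 and NP mice are given with and without them.

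The hormones themselves were examined first. Gh and Prl3b1, which encode growth hormone and a placental lactogen, were listed at 0 in all 27 libraries. Prl, which encodes prolactin, was at most 1.34 FPKM. Transcripts of the placental prolactin family were seen at dpc16 in the libraries with replicate number 3. Prl2c2 was at 4.50 FPKM there in zone 1, 46.9 in zone 2 and 23.6 in zone 3, and Prl3d1 was at 0.643, 26.98 and 6.93 FPKM, whereas both were listed at 0 in the other 6 dpc16 libraries. Prl8a8, another gene of that family, was at most 0.454 FPKM, in the same zone 2 library. In NP and dpc8 mice Prl2c2 reached at most 0.836 FPKM and Prl3d1 at most 0.0939 FPKM. Of the 86-base windows in the transcripts of Prl2c2, 69.3% also occur in other coding genes, and 28.5% of those of Prl3d1, so the split of reads between these paralogs is uncertain. The zone 2 and zone 3 libraries of this number are among the 6 with Y-linked FPKM. The zone 1 library had a Y-linked sum of 2.97 FPKM and stays in the fits without the 6.

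Both receptors were many times higher at dpc16 than in NP mice. The Prlr and Ghr genes both lie on chromosome 15, at chr15:10177238-10349180 and chr15:3317760-3583492 of GRCm38, on opposite strands, and Prlr overlaps the coding gene Gm21973 on its own strand, which was at 0 to 40.0 FPKM. In NP mice, Prlr was at 122.6, 258 and 253 FPKM in zone 1, 275, 300.2 and 375 in zone 2 and 335, 366 and 345 in zone 3, in the order of replicates 1 to 3. At dpc8 it was at 318, 325 and 352 FPKM in zone 1, 583, 283 and 476 in zone 2 and 629, 459.9 and 486 in zone 3. At dpc16 it was at 2192, 2037 and 2211 FPKM in zone 1, 2482, 2041 and 697 in zone 2 and 2128, 1929.6 and 1189 in zone 3. Every dpc16 library was above every NP and dpc8 library, and the lowest dpc16 value, in zone 2 replicate 3, at 697 FPKM, came close to the highest dpc8 value of 629 FPKM. The other receptor followed the same course at dpc16 but not at dpc8.

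Ghr in NP mice was at 121, 173 and 218 FPKM in zone 1, 204, 206 and 229 in zone 2 and 249, 267 and 325 in zone 3. In dpc8 mice, the values were 104, 117 and 124 FPKM in zone 1, 199, 117 and 175 in zone 2 and 282, 204 and 237 in zone 3. In dpc16 mice, they were 2391, 1590.2 and 2250.5 FPKM in zone 1, 2316, 1761 and 729.7 in zone 2 and 1908, 1580.2 and 1110.1 in zone 3. The dpc16 values were all above the NP and dpc8 values, while those of dpc8 were below those of NP in zone 2 and overlapped them in zones 1 and 3. As means over the 9 libraries of a stage, Prlr was at 292 ± 78.1 FPKM (SD, n = 9) in NP mice, 435 ± 122 at dpc8 and 1878 ± 566 at dpc16, and Ghr at 221 ± 57.6, 173 ± 62.2 and 1737 ± 560.2 FPKM. The ratio of the dpc16 to the NP mean was 6.43 for Prlr and 7.85 for Ghr.

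**Figure D1:**
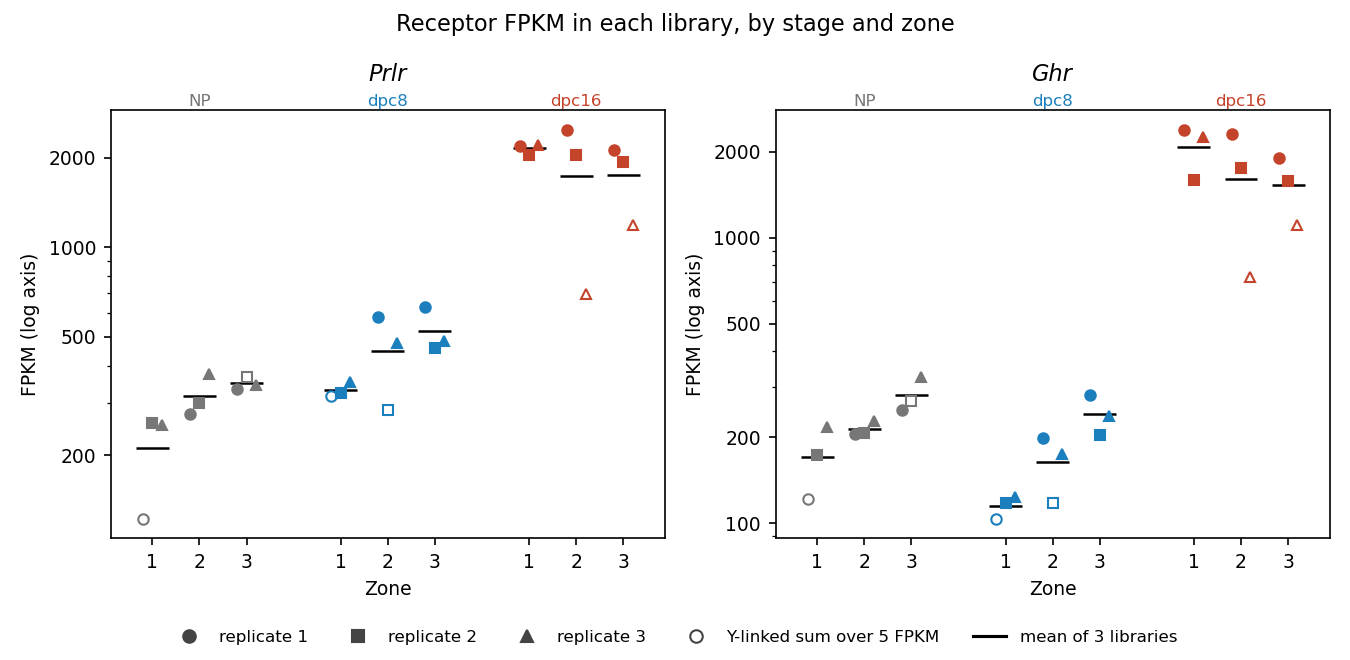
Each point is the FPKM of Prlr (left) or Ghr (right) in 1 library on a log axis, by stage and zone, with the mean of 3 libraries as a bar and open symbols for the 6 libraries with a Y-linked sum over 5 FPKM. The 9 dpc16 libraries sit between 697 and 2482 FPKM for Prlr and between 730 and 2391 FPKM for Ghr, above all NP and dpc8 libraries.

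The rise was tested within each zone with limma on log2(FPKM + 1), with Benjamini-Hochberg adjustment over 12952 genes. Between dpc16 and NP mice, the log2 fold change of Prlr was 3.42 ± 0.38 (SE) in zone 1, 2.27 ± 0.38 in zone 2 and 2.28 ± 0.38 in zone 3, with adjusted p-values of 6.97e-06, 0.00117 and 0.00127. For Ghr, it was 3.62 ± 0.33, 2.75 ± 0.33 and 2.42 ± 0.33, with adjusted p-values of 5.57e-07, 3.26e-05 and 0.000148. Without the 6 libraries with Y-linked FPKM, the log2 fold changes in zones 1, 2 and 3 were 3.06, 2.84 and 2.57 for Prlr and 3.39, 3.24 and 2.60 for Ghr, all of which passed. In the fit of all libraries no other of the 10 genes rose within a zone, so 2 of 10 rose in each, where 1.37%, 2.66% and 1.32% of all genes passed in zones 1, 2 and 3. Among all 12952 genes ordered by the fold change averaged over zones, Ghr ranked 21 and Prlr 29 from the top. Fold changes on this scale understate those of genes with low FPKM. In these samples fewer cells of a type and less RNA per cell cannot be told apart.

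Most of the rise came after dpc8. From dpc8 to dpc16, Prlr rose by a log2 fold change of 2.69 ± 0.38 in zone 1, 1.83 ± 0.38 in zone 2 and 1.70 ± 0.38 in zone 3, with adjusted p-values of 0.000223, 0.0118 and 0.0197. Ghr rose by 4.15 ± 0.33, 3.16 ± 0.33 and 2.64 ± 0.33, with adjusted p-values of 6.25e-08, 6.34e-06 and 6.33e-05. Again 2 of 10 genes rose in each zone, against 2.01%, 1.51% and 1.37% of all genes that passed in zones 1, 2 and 3. When only the groups compared were fitted, neither receptor passed in zone 2 (adjusted p = 0.241 for Prlr and 0.112 for Ghr against NP, 0.554 and 0.202 against dpc8), and Prlr did not pass in zone 3 against dpc8 (adjusted p = 0.0508). Leaving out 1 library ended the call of Prlr against dpc8 in some fits, in zone 2 without dpc8 replicate 2 or dpc16 replicates 1 or 2 and in zone 3 without dpc8 replicates 2 or 3 or dpc16 replicates 1 or 2, with adjusted p-values of up to 0.111 and log2 fold changes of 1.47 to 1.66. With the fits that left out a replicate number in all zones of a stage included, Prlr passed in 29 of 36 in zone 2. In zone 3 it passed in 28 of 36, with adjusted p-values of up to 0.145.

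Averaged over the zones, the log2 fold change from NP to dpc16 was 2.93 ± 0.19 for Ghr and 2.66 ± 0.22 for Prlr, with adjusted p-values of 7.91e-10 and 1.92e-08 (limma). From dpc8 to dpc16, it was 3.32 ± 0.19 for Ghr and 2.07 ± 0.22 for Prlr, with adjusted p-values of 7.68e-11 and 9.79e-07. Of the 10 genes, 5 passed in the first comparison, in which 11.8% of all genes did, and 2 in the second, in which 11.1% did. Without the 6 libraries with Y-linked FPKM, the log2 fold changes from NP to dpc16 were 3.08 for Ghr and 2.82 for Prlr. With each library scaled to the same FPKM sum, the median of all genes moved from -0.01 to -0.33 and the genes passing from 732 higher and 797 lower to 268 higher and 2981 lower, while Ghr stayed at 2.54 and Prlr at 2.26. From dpc8 to dpc16 the same scaling moved the median of all genes to -0.38 and the split from 695 higher and 737 lower to 246 and 3395.

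Markers of cell types moved between the same stages. Of 6 hepatocyte markers, 3 were higher and 1 lower at dpc16 than in NP mice, with a median log2 fold change of 0.81, and their summed FPKM was 32311 to 97405 in NP, 33143 to 65889 in dpc8 and 46435 to 223683 in dpc16 libraries. Alb, the serum albumin gene, took 3.71% to 11.98% of the FPKM sum in NP mice, 4.203% to 10.7% at dpc8 and 7.98% to 21.0% at dpc16. None of the defining hepatocyte markers was at 0 in a library. Within groups, the deviation of Prlr from its group mean had a Pearson r of -0.78 with that of the connective tissue markers over the 27 libraries, and the deviation of Ghr an r of -0.79. Both dpc16 libraries with Y-linked FPKM had the lowest Prlr and Ghr of their groups. The connective tissue sums were 26.97 to 2623 FPKM in NP, 14.6 to 4488 in dpc8 and 13.6 to 4593 in dpc16 libraries, and 0 of the 8 markers passed between dpc16 and NP mice (limma). Of the 5 Kupffer cell markers 3 were lower at dpc16, of the 5 stellate cell markers 1 was, and of the 5 sinusoidal endothelial, 5 cholangiocyte and 2 lymphocyte markers tested none passed. Of the 8 periportal markers, 5 were lower and 0 higher at dpc16 than in NP mice (median -0.96) and 5 lower than at dpc8 (median -1.31), and of the 8 pericentral markers 1 was higher and 2 were lower in each comparison. The part of the hepatocyte, Kupffer and periportal markers in the receptor result was not tested. With the connective tissue list as a covariate, Prlr and Ghr kept adjusted p-values below the threshold in every zone against NP.

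**Figure D2:**
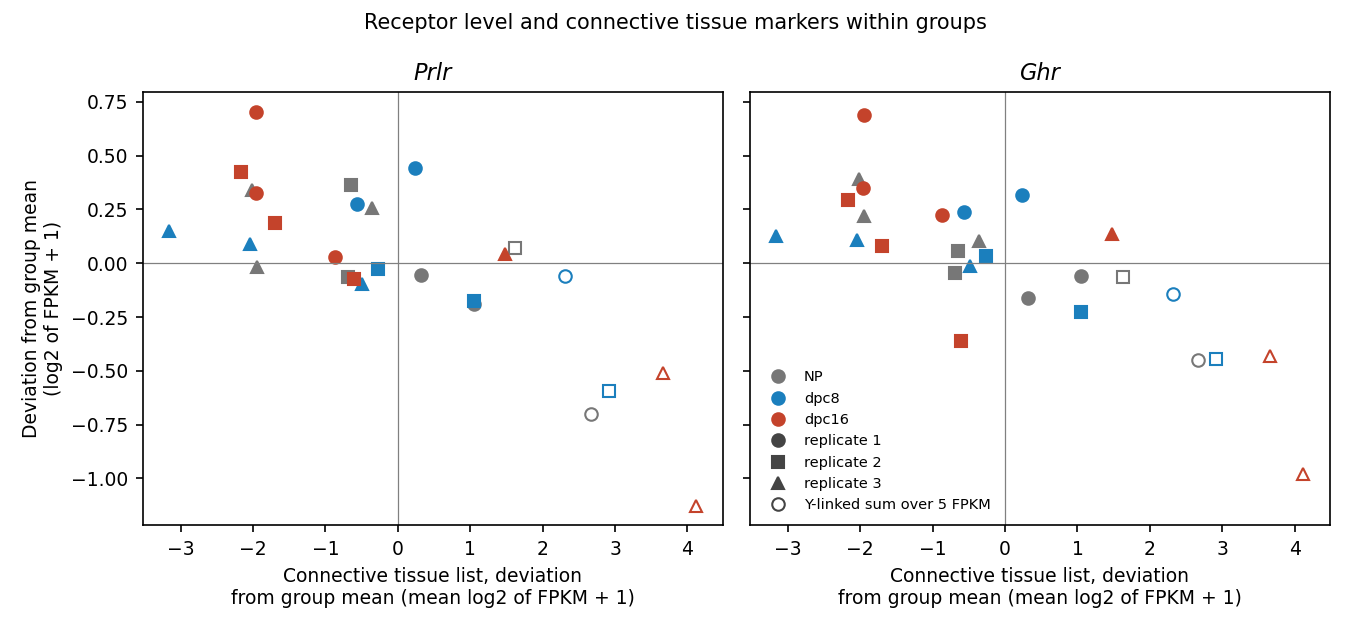
Deviation of log2(FPKM + 1) from the group mean for Prlr (left) and Ghr (right) against the deviation of the mean log2 value of 8 connective tissue and smooth muscle markers, 1 point per library. The points run from upper left to lower right (r = -0.78 and -0.79, n = 27), with the lowest point of each panel being dpc16 zone 2 replicate 3.

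At dpc8, none of the 10 genes passed within a zone. With limma, 0 of 10 passed in zones 1, 2 and 3, where 0.0309%, 0.00772% and 0.0154% of all genes passed, and 1, 2 and 1 of them had an unadjusted p under 0.05. Averaged over zones, 0 of 10 passed, against 0.108% of all genes, and 5 had an unadjusted p under 0.05. How many of all genes had such an unadjusted p was not counted, here or for the later counts of this kind, so these counts have no background. Prlr had a log2 fold change of 0.58 ± 0.22 with an adjusted p of 0.602. It was higher than NP in every library of zone 1 and zone 3, and not in zone 2, where dpc8 replicate 2 lay at 283 FPKM. The value was 0.59 and passed without the 6 libraries that held Y-linked FPKM (adjusted p = 0.0115), and it passed with the connective tissue covariate (0.62, adjusted p = 0.0438). Ghr had a log2 fold change of -0.39 ± 0.19, with an adjusted p of 0.836. The median over the 10 genes was 0.25, and over all genes -0.0004.

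**Figure D3:**
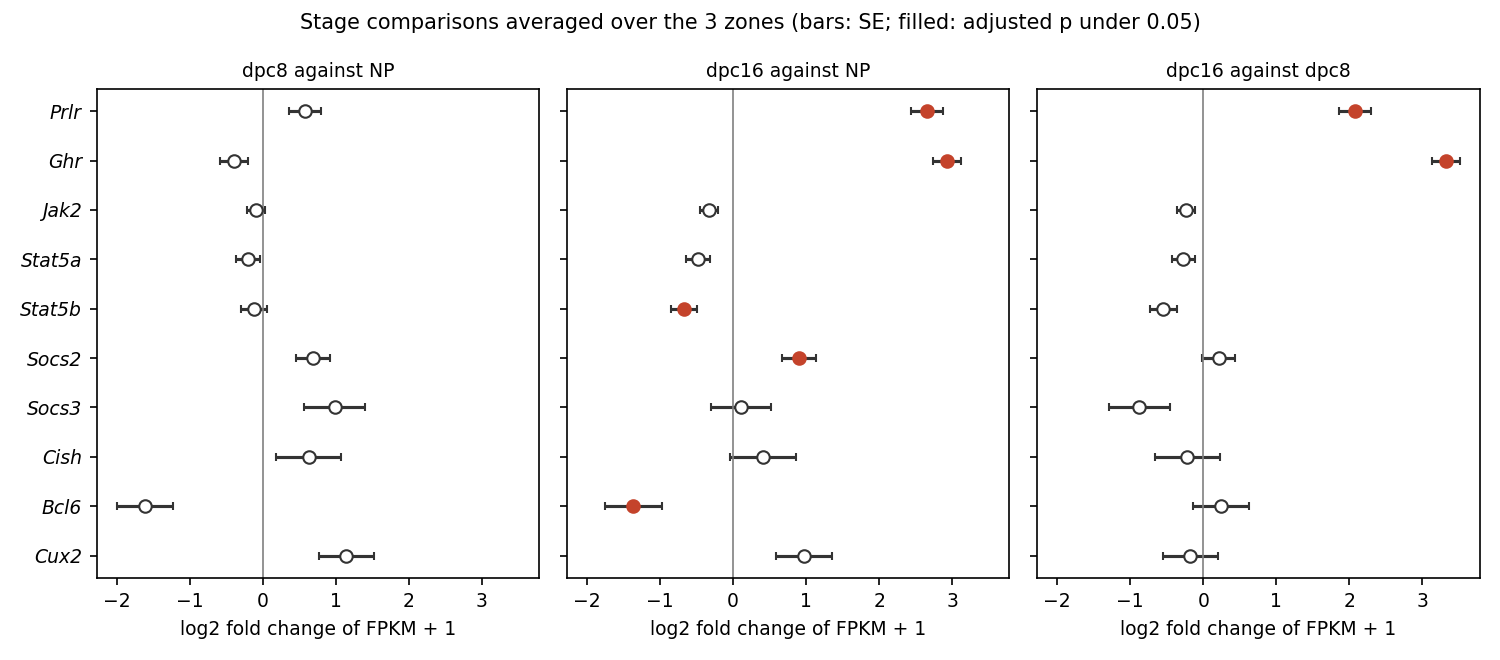
Log2 fold change of FPKM + 1 averaged over the 3 zones for each gene, with bars for the SE and filled points for an adjusted p under 0.05, in 3 comparisons of stages. Ghr (2.93 and 3.32) and Prlr (2.66 and 2.07) are the points farthest to the right against NP and dpc8, and 3 further genes are filled in the comparison of dpc16 with NP.

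The receptors did not pass for zonation in the fit of all libraries. Between zone 1 and zone 3, 0 of 10 genes passed at any stage (limma), while of all genes 1.34% passed in NP mice, 1.61% at dpc8 and 1.55% at dpc16. Of the 10, 3, 2 and 0 were at an unadjusted p under 0.05. Averaged over stages, 0 of 10 passed between zones 1 and 3, 1 and 2, and 2 and 3, where 5.59%, 0.919% and 1.88% of all genes did, with 2, 0 and 1 at an unadjusted p under 0.05. Every zone 3 library was above every zone 1 library for Prlr and for Ghr, in NP as in dpc8 mice. The share of all genes with such a separation was not counted. The log2 fold change from zone 3 to zone 1 was -0.80 ± 0.38 for Prlr and -0.74 ± 0.33 for Ghr in NP mice (adjusted p = 0.597 and 0.545) and -0.65 ± 0.38 and -1.05 ± 0.33 at dpc8 (adjusted p = 0.5005 and 0.138). Ghr at dpc8 passed with equal FPKM sums, quantile normalization and array weights (adjusted p = 0.0102, 0.0307 and 0.00609), when the 6 libraries that held Y-linked FPKM were left out (-0.98, adjusted p = 0.0119) and with the replicate number within stage as a block (adjusted p = 0.0415).

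In the order of group means, the zone 1 mean was the lowest of the 3 zones for Prlr and Ghr in NP and dpc8 mice and the highest at dpc16. Without the 6 libraries with Y-linked FPKM, zone 1 stayed the lowest in NP and dpc8 mice, but at dpc16 the Prlr mean was 2147 FPKM in zone 1 (n = 3), 2261 in zone 2 (n = 2) and 2029 in zone 3 (n = 2), so that zone 2 was the highest, and the Ghr means were 2077, 2039 and 1744 FPKM. With all libraries, Prlr ran from 2147 ± 95.5 FPKM (SD, n = 3) at dpc16 in zone 1 down to 211 ± 76.8 in NP zone 1, and Ghr from 2077 ± 428 at dpc16 in zone 1 to 115 ± 10.2 at dpc8 in zone 1. Of the 8 pairs of neighbours in this order, the libraries were apart in 2 for Prlr, between dpc16 zone 2 and dpc8 zone 3 and between NP zone 2 and NP zone 1, and in 1 for Ghr, between dpc16 zone 3 and NP zone 3. The others overlapped. The ratio of the dpc16 to the NP mean was 10.2 in zone 1, 5.49 in zone 2 and 5.01 in zone 3 for Prlr, and 12.2, 7.52 and 5.47 for Ghr. Without the 6 libraries, it was 8.40, 7.14 and 5.97 for Prlr and 10.6, 9.57 and 6.08 for Ghr. The log2 change to dpc16 in zone 1 minus that in zone 3 was 1.14 ± 0.53 for Prlr (95% interval 0.035 to 2.24, adjusted p = 0.993) and 1.19 ± 0.47 for Ghr (0.225 to 2.17, adjusted p = 0.993), and neither passed (limma). Without the 6 libraries, the difference was 0.49 ± 0.25 for Prlr and 0.79 ± 0.30 for Ghr (adjusted p = 1 for both). In the 6 contrasts of this kind, 0 of 10 genes passed. Of all genes, 0.054% passed for dpc16 between zones 1 and 3, 0.0154% between zones 2 and 3 and 0% between zones 1 and 2, and 0% in each of the 3 for dpc8. For dpc16, 3 of the 10 genes had an unadjusted p under 0.05 between zones 1 and 3 and 2 between zones 1 and 2, and the other contrasts had none.

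The Prlr gene has several starts, and the RefSeq table of promoters on GRCm38.p6 holds 3 of them. The letters TTCNNNGAA, the core of the sequence that STAT5 binds and the same on both strands, were searched from 250 bases before to 50 bases after each start. They occur at 1 of the 3 Prlr starts, first base 110 bases before it, and at neither of the 2 Ghr starts. Of the 16 promoters held for 9 of the 10 genes, which leaves out Socs2, 5 (31.2%) had a match, as did 2726 of all 32851 promoters (8.30%). The 250 bases before the Prlr start with a match are shown because this is the receptor gene with the motif, on the plus strand at chr15:10223656-10223905, with the match in capitals.
Prlr: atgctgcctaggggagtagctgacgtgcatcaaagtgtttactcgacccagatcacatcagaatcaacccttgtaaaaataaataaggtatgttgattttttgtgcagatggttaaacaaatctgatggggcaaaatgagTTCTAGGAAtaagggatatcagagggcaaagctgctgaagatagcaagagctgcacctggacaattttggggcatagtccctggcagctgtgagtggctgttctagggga
A match describes these letters only and shows no binding.

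Jak2, Stat5a and Stat5b, the signal carriers behind the receptors, had no rise that passed. Jak2 (chr19:29251828-29313080), the kinase shared by both receptors, was at 6.64 ± 0.895 FPKM (SD, n = 9) in NP mice, 6.17 ± 0.701 at dpc8 and 5.13 ± 0.966 at dpc16, and its group means ran from 6.72 ± 1.40 (SD, n = 3) in NP zone 1, through 6.70 ± 0.671 and 6.51 ± 0.867 in NP zones 2 and 3, 6.05 ± 0.281, 6.38 ± 0.974 and 6.08 ± 0.914 at dpc8 in zones 1 to 3 and 5.41 ± 0.659 and 5.10 ± 1.60 at dpc16 in zones 1 and 2, to 4.89 ± 0.736 at dpc16 in zone 3. The log2 fold change to dpc16 averaged over zones was -0.33 ± 0.12, with an adjusted p of 0.0896 (limma). With equal FPKM sums, which moved the median of all genes to -0.33, Jak2 was at -0.69 and passed (adjusted p = 0.00851), as did Stat5a at -0.83 (adjusted p = 0.00651). Neighbours in the order of its group means all overlapped.

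Stat5b (chr11:100780731-100850724), the STAT5 gene with the higher FPKM of the pair, fell by 0.67 on the log2 scale between NP and dpc16 mice averaged over zones (SE 0.18, adjusted p = 0.0170, limma). In NP mice it was at 12.1, 26.6 and 13.02 FPKM in zone 1, 13.8, 24.4 and 17.2 in zone 2 and 17.99, 16.8 and 12.5 in zone 3. At dpc8 it was at 7.74, 16.4 and 19.7 FPKM in zone 1, 11.5, 13.2 and 18.3 in zone 2 and 13.6, 19.5 and 21.9 in zone 3. At dpc16 it was at 9.79, 11.4 and 12.8 FPKM in zone 1, 10.6, 9.08 and 10.01 in zone 2 and 10.7, 9.78 and 7.23 in zone 3. All dpc16 values were below all NP values in zones 2 and 3, and in zone 1 the groups overlapped. The stage means were 17.1 ± 5.22, 15.7 ± 4.56 and 10.1 ± 1.53 FPKM (SD, n = 9). The call was lost without the NP libraries of replicate 2 (-0.47, adjusted p = 0.128) and without the dpc16 libraries of replicate 1 or 2 (adjusted p = 0.0549 and 0.0748). From dpc8 to dpc16 the log2 fold change was -0.55 ± 0.18 (adjusted p = 0.0545), which passed without the 6 libraries with Y-linked FPKM (-0.64, adjusted p = 0.0228) and with the replicate number as a fixed block (adjusted p = 0.0395).

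Stat5a (chr11:100859351-100885169) fell in zone 2 in the comparison of dpc16 with NP mice. Its values in NP mice were 3.80, 5.94 and 3.22 FPKM in zone 1, 5.17, 9.97 and 7.29 in zone 2 and 7.84, 8.17 and 4.52 in zone 3. Those in dpc8 mice were 5.66, 4.73 and 3.69 FPKM in zone 1, 4.51, 3.92 and 5.22 in zone 2 and 5.49, 6.85 and 5.40 in zone 3. Those in dpc16 mice were 3.21, 4.79 and 6.95 FPKM in zone 1, 2.23, 3.35 and 3.52 in zone 2 and 4.34, 3.45 and 5.24 in zone 3. In zone 2, all 3 dpc16 values were below all NP values and the log2 fold change was -1.05 ± 0.28, with an adjusted p of 0.0464 (limma). It was 0.15 ± 0.28 in zone 1 and -0.53 ± 0.28 in zone 3, and the change in zone 2 did not differ from these past the threshold (adjusted p = 0.782 against zone 1 and 1 against zone 3). The zone 2 call was lost with quantile normalization (adjusted p = 0.0520), with only the groups compared (0.415), when the 6 libraries that held Y-linked FPKM were left out (0.0597), and in 24 of 36 fits that left out 1 library or 1 replicate number. Averaged over zones, the log2 fold change was -0.47 ± 0.16 (adjusted p = 0.0605). Stat5a and Stat5b share 324 windows of 86 bases, 7.74% of those of Stat5a and 5.94% of those of Stat5b, and Stat5a overlaps Stat3 on the opposite strand, which was at 33.6 to 116 FPKM. Whether reads were counted by strand is not given in the sources used here, so reads of such partners could not be told apart.

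**Figure D4:**
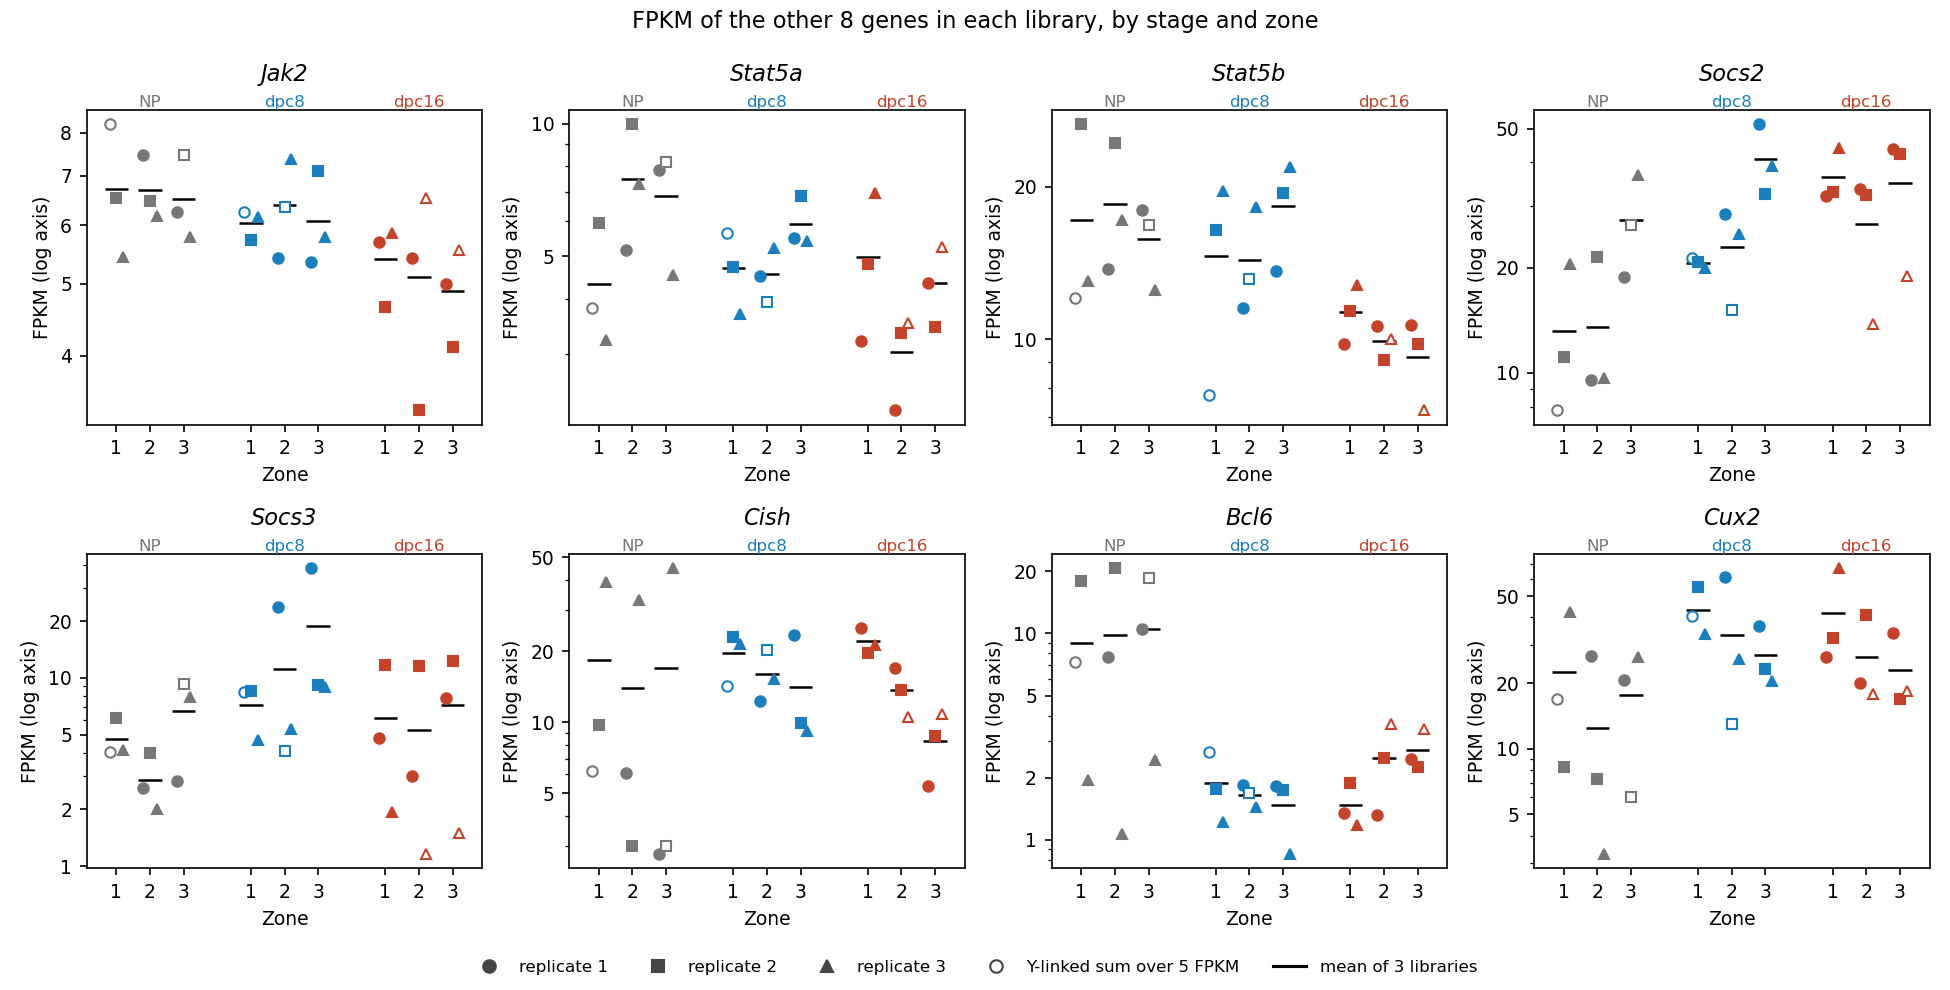
FPKM of the 8 genes other than the receptors in each library on log axes, by stage and zone, with the mean of 3 libraries as a bar and open symbols for the 6 libraries with a Y-linked sum over 5 FPKM. Stat5b lies between 7.23 and 12.8 FPKM at dpc16, and Cish and Bcl6 in NP mice split by replicate number, with replicate 3 at 32.8 to 44.9 FPKM for Cish and 1.07 to 2.43 FPKM for Bcl6.

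Of the feedback inhibitors, Socs2 (chr10:95385362-95417180), which limits growth hormone receptor signalling, rose between NP and dpc16 mice. In NP mice it was at 7.82, 11.1 and 20.5 FPKM in zone 1, 9.54, 21.4 and 9.64 in zone 2 and 18.8, 26.6 and 36.9 in zone 3. At dpc8 the values were 21.4, 20.8 and 19.9 FPKM in zone 1, 28.5, 15.1 and 25.0 in zone 2 and 51.4, 32.5 and 39.1 in zone 3. At dpc16 the values were 32.0, 33.0 and 44.0 FPKM in zone 1, 33.6, 32.3 and 13.8 in zone 2 and 43.7, 42.3 and 18.9 in zone 3. In zone 1 all dpc16 values were above all NP values, and in zones 2 and 3 the lowest dpc16 values, 13.8 and 18.9 FPKM in the libraries of replicate 3 that had Y-linked FPKM, lay within the NP range. The log2 fold change averaged over zones was 0.90 ± 0.23 (adjusted p = 0.0111, limma) and 0.69 ± 0.23 at dpc8 (adjusted p = 0.492). Like the receptors, Socs2 deviated within groups against the connective tissue markers (r = -0.72, n = 27), and without the 6 libraries its log2 fold change to dpc16 was 1.07. Within a zone it passed against NP in zone 2 without the 6 libraries (1.32, adjusted p = 0.0360) and in zones 1 and 2 with the connective tissue covariate (1.176 and 1.04, adjusted p = 0.0327 and 0.0337). The call was lost without the NP libraries of replicate 1 (0.67, adjusted p = 0.0984) and without the dpc16 libraries of replicate 1 or 2 (adjusted p = 0.0721 and 0.0802). Zone 3 had the highest mean in NP and dpc8 mice, 27.4 ± 9.06 and 41.0 ± 9.57 FPKM (SD, n = 3), against 13.1 ± 6.56 and 20.7 ± 0.734 in zone 1, and the log2 fold change from zone 3 to zone 1 over the stages was -0.62 ± 0.23 (adjusted p = 0.143). From zone 3 to zone 2 it passed with the replicate number within stage as a random block (-0.75, adjusted p = 0.0494).

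Socs3 (chr11:117966079-117970047), an inhibitor best known from interleukin 6 type signalling, did not pass in any comparison of the fit reported here. Its group means in zones 1, 2 and 3 were 4.75 ± 1.17, 2.87 ± 1.02 and 6.66 ± 3.37 FPKM (SD, n = 3) in NP, 7.20 ± 2.196, 11.1 ± 11.04 and 18.8 ± 16.9 in dpc8 and 6.15 ± 5.05, 5.26 ± 5.57 and 7.21 ± 5.45 in dpc16 mice. At dpc16 the values went by replicate number, with 3.03 to 7.81 FPKM in replicate 1, 11.6 to 12.3 in replicate 2 and 1.16 to 1.93 in replicate 3 across the zones. The log2 fold change averaged over zones was 0.98 ± 0.42 at dpc8 and 0.11 ± 0.42 at dpc16, with adjusted p-values of 0.717 and 0.920 (limma). From dpc8 to dpc16 it was -0.87 ± 0.42 (adjusted p = 0.204). That change passed in 1 of 11 other settings (adjusted p = 0.018). Of 36 fits that left out 1 library or 1 replicate number, it passed in 1 (adjusted p = 0.0388).

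Cish (chr9:107296026-107302784), an inhibitor induced by STAT5, and Bcl6 (chr16:23965052-23988852), a repressor that competes with STAT5 at shared sites, split the NP libraries by replicate number. In NP mice, Cish was at 6.21, 9.76 and 39.3 FPKM in zone 1, 6.07, 2.98 and 32.8 in zone 2 and 2.76, 2.98 and 44.9 in zone 3. Bcl6 in the same libraries was at 7.28, 17.9 and 1.94 FPKM in zone 1, 7.69, 20.7 and 1.07 in zone 2 and 10.6, 18.5 and 2.43 in zone 3. Thus replicate 3 had the highest Cish and the lowest Bcl6 in every NP zone, with no overlap with the libraries of the other two numbers. Over all 27 libraries the Pearson r between Cish and Bcl6 was -0.73 on the log2 scale, and -0.82 for deviations from group means, a description over libraries that share their stage and, within it, their number.

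**Figure D5:**
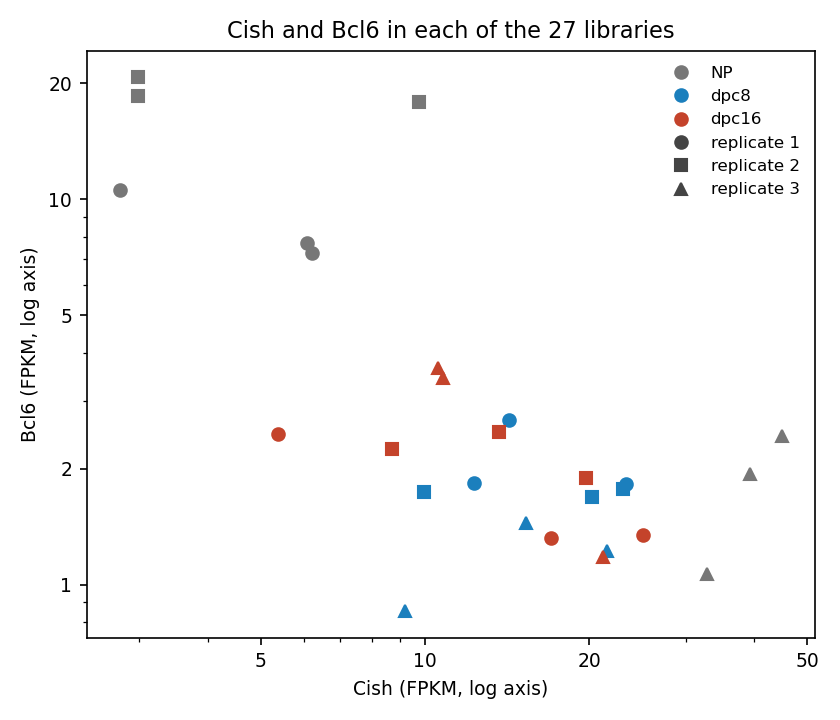
FPKM of Bcl6 against FPKM of Cish in each library, on log axes, with color for the stage and the symbol for the replicate number. The 6 NP libraries of replicates 1 and 2 lie at the upper left, with Bcl6 at 7.28 to 20.7 FPKM, and the 3 of replicate 3 at the lower right.

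In the pregnant libraries the values of Cish overlapped between replicate numbers, as did those of Bcl6 at dpc16. At dpc8, Bcl6 was at 2.67, 1.77 and 1.22 FPKM in zone 1, 1.84, 1.69 and 1.44 in zone 2 and 1.82, 1.74 and 0.854 in zone 3, with no overlap between the 3 numbers and replicate 3 the lowest in every zone. At dpc16, Bcl6 was at 1.35, 1.89 and 1.179 FPKM in zone 1, 1.32, 2.49 and 3.66 in zone 2 and 2.46, 2.25 and 3.43 in zone 3. All 18 values were below the 6 NP values of replicates 1 and 2 and overlapped those of replicate 3. Cish was at 14.2, 23.0 and 21.5 FPKM in zone 1, 12.3, 20.2 and 15.3 in zone 2 and 23.3, 9.95 and 9.17 in zone 3 at dpc8. It was at 25.0, 19.7 and 21.2 FPKM in zone 1, 17.0, 13.7 and 10.5 in zone 2 and 5.39, 8.70 and 10.8 in zone 3 at dpc16. All 18 values lay below those of NP replicate 3, and 15 of the 18 above those of NP replicates 1 and 2.

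The log2 fold change of Bcl6 averaged over zones was -1.37 ± 0.39 at dpc16 (adjusted p = 0.0236, limma) and -1.61 ± 0.39 at dpc8 (adjusted p = 0.183). The value depended on the NP replicates. The dpc16 value was -2.14 without NP replicate 3 in all zones (adjusted p = 9.33e-06), and -0.71 without NP replicate 2 (adjusted p = 0.204). At dpc8 it was -2.38 without NP replicate 3 (adjusted p = 4.17e-05). Cish did not pass, with log2 fold changes of 0.63 ± 0.45 at dpc8 (adjusted p = 0.979) and 0.41 ± 0.45 at dpc16 (adjusted p = 0.657). Without NP replicate 3 in all zones, Cish was higher at dpc8 by 1.56 (adjusted p = 0.00179) and at dpc16 by 1.35 (adjusted p = 0.000534), and without NP replicate 1 or 2 the dpc16 value was -0.04 or -0.07. Without NP replicate 3, Cish also passed between zones 1 and 3 over the stages (1.02, adjusted p = 0.00521), as it did with the replicate number within stage as a block (0.87, adjusted p = 0.0234).

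Of the 9 genes with a promoter in the table, Cish and Bcl6 are those with more than 1 STAT5 motif in a promoter, which 150 of all 32851 promoters (0.457%) have. Cish holds 2, whose first bases are at positions 1 and 12 counted from the start, and Bcl6 holds 3 at 1 of its 2 starts, at 168, 122 and 88 bases before it, and 1 at the other, 118 bases before it. Shown with the matches of TTCNNNGAA in capitals are the Cish promoter on the plus strand (chr9:107296409-107296678, from 250 bases before to 20 bases after the start), the Bcl6 promoter on the minus strand (chr16:23981284-23981533, 250 bases before the start) and, for comparison with a single match 154 bases before the start, that of Socs3 on the minus strand (chr11:117969367-117969616).
Cish: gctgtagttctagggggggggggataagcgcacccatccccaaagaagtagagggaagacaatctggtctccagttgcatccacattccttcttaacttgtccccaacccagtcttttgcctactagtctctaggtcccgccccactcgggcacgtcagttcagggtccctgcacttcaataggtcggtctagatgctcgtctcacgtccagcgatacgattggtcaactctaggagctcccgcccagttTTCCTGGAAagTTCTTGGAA
Bcl6: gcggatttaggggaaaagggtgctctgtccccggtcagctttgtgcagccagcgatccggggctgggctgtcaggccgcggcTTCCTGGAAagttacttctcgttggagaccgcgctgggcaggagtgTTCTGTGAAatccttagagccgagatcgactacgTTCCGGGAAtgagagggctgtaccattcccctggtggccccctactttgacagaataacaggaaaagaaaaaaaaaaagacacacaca
Socs3: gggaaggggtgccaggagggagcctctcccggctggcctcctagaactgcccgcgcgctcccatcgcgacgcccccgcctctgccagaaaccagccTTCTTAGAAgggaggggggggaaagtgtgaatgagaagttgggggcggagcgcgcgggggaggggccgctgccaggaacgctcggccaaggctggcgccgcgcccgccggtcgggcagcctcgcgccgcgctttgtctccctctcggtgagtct
No match was found within 250 bases before to 50 after the starts held for Ghr, Jak2, Stat5a, Stat5b and Cux2.

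Cux2 (chr5:121856366-122050102), a female-biased transcription factor in liver, did not pass in any comparison of the fit reported here. Its means in zones 1, 2 and 3 were 22.4 ± 17.6, 12.4 ± 12.5 and 17.6 ± 10.5 FPKM (SD, n = 3) in NP, 43.1 ± 11.1, 33.3 ± 25.0 and 26.8 ± 8.65 in dpc8 and 41.8 ± 22.2, 26.3 ± 12.8 and 23.0 ± 9.37 in dpc16 mice. The log2 fold change averaged over zones was 1.15 ± 0.38 at dpc8 and 0.97 ± 0.38 at dpc16, and neither passed (adjusted p = 0.492 and 0.109, limma). The dpc16 value passed in 1 of 11 other settings (adjusted p = 0.0358). Of 36 fits that left out 1 library or 1 replicate number, it passed in 2 (lowest adjusted p = 0.0297). NP values ran from 3.29 to 42.2 FPKM, a range that held 15 of the 18 pregnant libraries.

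Of the 5 genes that passed between dpc16 and NP mice averaged over zones, Prlr and Ghr alone kept their calls when the 3 zones of a stage and replicate number were averaged first, the block that treats same-numbered libraries as 1 unit. In that fit Prlr had an adjusted p of 0.00173 and Ghr of 0.000764, while Socs2, Bcl6 and Stat5b had 0.115, 0.288 and 0.198 (limma), with the same fold changes. With the replicate number within stage as a random block, all 5 passed, Stat5b with an adjusted p of 0.0484, Socs2 with 0.0437 and Bcl6 with 0.0405. Bcl6 also lost its call without the 6 libraries with Y-linked FPKM (-1.29, adjusted p = 0.0741). In all, Bcl6 passed in 8 of 11 other settings and in 29 of 36 fits that left out 1 library or 1 replicate number.

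Other genes of the pathway were read from lists. Of 13 other inhibitors of cytokine signalling that passed the filter, 1 rose between NP and dpc16 mice averaged over zones (limma), the phosphatase gene Ptpn1 (log2 fold change 0.64 ± 0.18, SE, adjusted p = 0.0242), and of 10 adaptors, 1 fell, the kinase gene Lyn (-0.43 ± 0.12, adjusted p = 0.0184). Of 9 related cytokine receptors, 1 rose. Of all genes, 11.8% passed in this comparison. Lifr, the receptor for leukemia inhibitory factor, was at 199.9 ± 90.1 FPKM (SD, n = 9) in NP mice, 358 ± 237 at dpc8 and 2177 ± 610.4 at dpc16. Its log2 fold change to dpc16 was 3.52 ± 0.28 (adjusted p = 1.79e-08). The medians over these lists were 0.08, 0.05 and 0.08 for inhibitors, adaptors and receptors, beside -0.01 over all genes. When the 3 zones of a number were averaged first, Lifr passed and Ptpn1 and Lyn did not. With the replicate number within stage as a random block neither passed, Ptpn1 did not pass with equal FPKM sums, and Lyn did not with quantile normalization or with only the groups compared. With equal FPKM sums, 3 inhibitors and 2 adaptors were lower, none of either list was higher, and Lifr alone of the receptors passed. Among all 12952 genes, 268 were higher and 2981 lower with this scaling. At dpc8 these 3 lists had 0 calls, with 0 inhibitors, 0 adaptors and 1 receptor at an unadjusted p under 0.05.

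Among genes that growth hormone controls in liver, 0 of 4 targets (Igf1, Igfals, Egfr and Onecut1) passed at dpc8 or dpc16 (limma), and 0 had an unadjusted p under 0.05 at either stage. With equal FPKM sums, 2 of the 4 were lower at dpc16, as were 2981 of all 12952 genes. The median of the 4 was -0.52 beside -0.33 over all genes. Igf1, which encodes the growth factor made by liver in response to growth hormone, was at 462 ± 121 FPKM (SD, n = 9) in NP mice, 428 ± 126 at dpc8 and 369 ± 174 at dpc16. Of 13 female-biased liver genes, 7 rose and 2 fell at dpc16, with a median log2 fold change of 1.10, and 2 rose and 1 fell at dpc8, while of all genes 11.8% passed at dpc16 and 0.108% at dpc8 in either direction. From dpc8 to dpc16, 1 rose and 3 fell, with a median of -0.52, where 11.1% of all genes passed. With equal FPKM sums 1 rose and 7 fell, where 246 of all 12952 genes were higher and 3395 lower. A1bg rose by 3.83 ± 0.33 at dpc8 (adjusted p = 6.32e-07) and 3.16 ± 0.33 at dpc16 (adjusted p = 8.31e-07). The cytochrome P450 gene Cyp3a44 rose by 2.21 ± 0.30 and 2.66 ± 0.30, and Cyp3a41b and Cyp3a16 rose at dpc16 by 2.38 ± 0.37 and 2.16 ± 0.38. These P450 genes belong to a family of close copies, so the split of reads among them is uncertain. Cyp2b13 fell by 3.75 and Cyp2b9 by 1.13 on the log2 scale at dpc16, with adjusted p-values of 2.38e-09 and 0.00200. Cyp2b13 also fell at dpc8 (-1.37, adjusted p = 0.0402), a call that was lost in 5 of 11 other settings, among them the random block within stage and the average of the zones of a number. When the 3 zones of a number were averaged first, Cyp2b9 at dpc16 and Cyp3a44 at dpc8 also lost their calls.

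Of 10 male-biased liver genes that passed the filter, 1 rose and 2 fell at dpc16, with a median of -0.52, and 0 passed at dpc8, where 2 had an unadjusted p under 0.05. The shares of all genes that passed were the same 11.8% and 0.108%. Mup20, one of a family of near-identical major urinary protein genes that reads may not tell apart, went from 30.8 ± 19.9 to 6.01 ± 2.70 FPKM (SD, n = 9), a log2 fold change of -2.09 ± 0.33 (adjusted p = 0.000150, limma). Elovl3, a fatty acid elongase gene, fell by 0.97 (adjusted p = 0.0275), with all values at or under 13.9 FPKM, and Gstp1, a glutathione transferase gene, rose by 0.97 ± 0.30 (adjusted p = 0.0383). Mup20 passed in all 11 other settings. Elovl3 and Gstp1 did not with the replicate number as a random block within stage or with zones averaged first, Elovl3 also not with quantile normalization or only the groups compared, and Gstp1 also not without the filter or with equal FPKM sums. When the 3 zones of a number were averaged first, 4 female-biased genes rose and 1 fell, and of the male-biased genes 0 rose and 1 fell. In that fit 192 of all 12952 genes were higher and 207 lower. With equal FPKM sums the female-biased genes were 6 higher and 3 lower and the male-biased genes 0 higher and 5 lower. Of all 12952 genes, 268 were higher and 2981 lower with that scaling.

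The genes most like the 5 in level across the 27 libraries, by Pearson r of log2(FPKM + 1), were Lifr (0.98) and Aldh1a7 (0.96) for Prlr, and Serpina6 (0.98) and Colgalt2 (0.96) for Ghr. For Stat5b they were Coq8a (0.90) and Rnf125 (0.90). For Socs2 they were Tmem184a (0.83) and Atp13a3 (0.79), and for Bcl6 they were Ntrk2 (0.70) and Corin (0.67). Prlr and Ghr correlated with each other at 0.94, and at 0.93 for deviations from group means. The libraries share their stage and zone, so these values describe the pattern and are given without a test.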

How the data were processed

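Laser-microdissected areas of zone 1, zone 2 and zone 3 of female mouse liver were profiled by RNA sequencing, with 3 libraries in each of the 9 groups of stage and zone. The deposited values are FPKM per gene, which the authors made with HISAT2 2.1.0 and Cufflinks 2.2.1 on the mm10 build. No read counts were used, so depth was estimated from the steps between low FPKM values, at 7529000 to 32973000 reads per library. No library pair was identical.

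A gene was kept if 3 or more libraries reached 1 FPKM, which left 12952 of 21823. Values were taken as log2(FPKM + 1) and fitted with limma 3.58.1 in R 4.3.3, with 9 group means and with the trend and robust options of its empirical Bayes step. The two-sided tests had Benjamini-Hochberg adjustment over all genes kept and a threshold of 0.05. The fit was checked on simulated data only with independent libraries, so that check does not cover zones that share an animal. The 10 genes and all gene lists were chosen with earlier results of these data known. All 10 genes are named, and of each list up to 4 genes that passed in each direction; 1 list of pathway genes is not reported here.

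Same-numbered libraries of different zones deviated together at dpc16, where 9 of 9 correlations of their deviations from group means were over 0.1 (0.263 to 0.863), and not throughout in NP (4 of 9) or at dpc8 (5 of 9). Fits with the number as a block are therefore given where they change a call of one of the 10 genes or of a named list gene. Alternatives were another pseudocount, no filter, equal FPKM sums, quantile normalization, array weights, only the groups compared, blocks, and leaving out each library. Chosen after seeing the data were leaving out the 6 libraries with Y-linked FPKM, a connective tissue covariate, leaving out a number in all zones of a stage, and blocks on zone means and within stages. Gene positions are from GENCODE vM21 and promoter sequences from RefSeq.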

Additional observations from a re-analysis of the deposited data

How the results depend on the processing

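Of the 10 genes, the number that passed depended on the processing in several comparisons. With equal FPKM sums, 6 passed between dpc16 and dpc8 averaged over zones, 1 between zones 1 and 3 at any stage and 2 averaged over stages, and 1 between zones 2 and 3. With quantile normalization, 1 passed between zones 1 and 3 at any stage and 1 averaged over stages. With array weights, 7 passed between dpc16 and NP in any zone and 8 averaged over zones, 4 between dpc16 and dpc8, 1 between dpc8 and NP, and 1 and 2 between zones 1 and 3 at any stage and averaged. Without the 6 libraries with Y-linked FPKM, 1 passed between dpc8 and NP, and 1 and 1 between zones 1 and 3. With the connective tissue covariate, 2 passed between dpc8 and NP and 1 between zones 2 and 3. A block on the replicate number gave 1 call between zones 2 and 3 (random within stage), 1 and 1 between zones 1 and 3 (fixed within stage), and 2 between dpc16 and NP when the zones of a number were averaged, against 5 without the block. Leaving out 1 library or 1 number gave 0 to 1 (any zone) and 0 to 2 (averaged) between dpc8 and NP, 2 to 4 and 2 to 7 between dpc16 and NP, 2 to 2 and 2 to 3 between dpc16 and dpc8, 0 to 1 and 0 to 2 between zones 1 and 3, and 0 to 1 between zones 2 and 3. The calls over all genes moved as well: of 12952, 14 passed between dpc8 and NP, 1529 between dpc16 and NP and 1432 between dpc16 and dpc8 averaged over zones, against 72, 2901 and 3527 with array weights, 18, 3249 and 3641 with equal FPKM sums, 43, 2148 and 2420 without the 6 libraries, 60, 2503 and 2425 with that covariate added, 4, 881 and 801 under a random block and 2, 399 and 277 with zones of a number averaged. Prlr and Ghr passed in all 11 other settings and all 36 left-out fits averaged over zones against NP and dpc8. With equal FPKM sums the values of Socs3 from NP to dpc16 (-0.25) and, from dpc8 to dpc16, of Socs2 (-0.23) and Bcl6 (-0.034) were below 0, but above the medians of all genes in those comparisons, -0.33 and -0.38. In left-out fits the log2 fold change ran from -0.47 to 0.71 for Socs3 and -0.072 to 1.35 for Cish from NP to dpc16, from -0.31 to 0.11 for Stat5b from NP to dpc8, and from -0.35 to 0.083 for Cux2 from dpc8 to dpc16. The causes were not tested beyond what each setting changes. Depth limits the genes at a few FPKM more than Prlr and Ghr, and no interval from counts could be given.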
